A study of Mus musculus with 768 samples.

Results

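Rag1, Rag2 and Dntt were followed across 768 single thymocytes, as 3 of the 23127 genes of the count table, found by their symbols. Rag1 and Rag2 encode the 2 subunits of the recombinase that cuts DNA at antigen receptor gene segments, and neither subunit cuts without the other. Dntt encodes terminal deoxynucleotidyl transferase, a polymerase that adds nucleotides without a template to the cut ends before they are joined. In the thymus this machinery assembles T-cell receptor genes, beginning while the cells still lack CD4 and CD8 (double negative, DN), and the pre-T-cell receptor is formed once a beta chain gene has been joined.

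Cells were sorted from the thymus of C57BL/6 mice of 6 to 8 weeks, into 8 plates of 96 cells. The DN1 gate took CD25-, CD44+ cells and the DN2-3 gate CD25+ cells, both within CD45+ lineage-negative cells without CD4 and CD8. Wild type (WT), Tcf7-/- and Tcf7fl/fl with Vav-cre gave 1 plate in each gate. Tcf7fl/fl with Lck-cre was sorted in the DN2-3 gate alone, into 2 plates. Tcf7 is the gene of TCF1, a DNA-binding protein needed early in T-cell development, Vav-cre is a recombinase active throughout blood cells, and Lck-cre one that acts in T-cell precursors. No littermate without Cre is among the groups, and no animal is named. With 1 plate per gate and genotype there is no test between genotypes, and the 2 Lck-cre plates, which are not named as separate mice, give the only spread. Intervals are exact, at 95%, and cover counting error only.

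Of the 768 cells, the 675 in which 1000 or more genes had a count were used, with 58 to 96 cells and 1547512 to 8371808 counts per plate. Levels are in CPM, a gene's counts summed over a plate's used cells and scaled so that the counts of all genes sum to 1000000. The deposited counts carry no length term, so levels are compared between plates for 1 gene and never between genes. Tcf7 was at 862 CPM in WT DN2-3 and at 122 CPM in Tcf7-/- DN2-3. In the DN1 gate it was at 134 CPM in WT, 98.6 CPM in Tcf7-/- and 368 CPM in Vav-cre, so it hardly checks the label of the Tcf7-/- DN1 plate. In the DN2-3 gate the libraries labelled Vav-cre and Lck-cre held 964 CPM and 762 and 658 CPM, so Tcf7 counts do not check those labels, and these are named here as labelled. The Tcf7-/- plates carry other labels than the rest, and their genotype and a batch cannot be told apart. Il2ra, which encodes CD25, was at 225 to 419 CPM in the DN2-3 plates and Cd44 at 0 to 4.42 CPM. In the DN1 plates, sorted as CD25-, Il2ra was at 9.70 CPM in WT, 60.6 CPM in Tcf7-/- and 169 CPM in Vav-cre.

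Rag1 and Rag2 lie close together on mouse chromosome 2 on opposite strands. Rag1 spans chr2:101638282-101649501 on the minus strand with 2 merged exons, and Rag2 spans chr2:101624718-101632529 on the plus strand with 3 (GRCm38, GENCODE annotation). The gap between them is 5752 bases. Another gene, B230118H07Rik, runs across both on the minus strand, and its exons cover 80 of the 6608 exonic bases of Rag1 and 208 of the 3424 of Rag2. Dntt lies apart, at chr19:41029275-41059525 on the plus strand, with 13 merged exons. The strand setting of the counting is not given in the sources used here, so reads from the shared bases cannot be told apart.

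The 250 bases before each RefSeq start site are printed because the study asks what a transcription factor does to genes of this stage. They are RefSeq sequences of GRCm38.p6 in the direction of transcription. Capitals mark matches, on either strand, to 5 short motifs. The E box, which E proteins read, was searched as CANNTG. The core letters of TCF and LEF factors were CTTTGA. Runx factors were searched by TGTGGT, and Gata factors by AGATAA. The letters for Ikaros were TGGGAA.
Rag1 promoter: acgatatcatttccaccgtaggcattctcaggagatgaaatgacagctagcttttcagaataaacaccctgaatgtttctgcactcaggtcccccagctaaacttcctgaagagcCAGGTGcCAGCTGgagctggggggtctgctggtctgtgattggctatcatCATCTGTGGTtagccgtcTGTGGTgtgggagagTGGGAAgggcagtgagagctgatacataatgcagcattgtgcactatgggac
Rag2 promoter: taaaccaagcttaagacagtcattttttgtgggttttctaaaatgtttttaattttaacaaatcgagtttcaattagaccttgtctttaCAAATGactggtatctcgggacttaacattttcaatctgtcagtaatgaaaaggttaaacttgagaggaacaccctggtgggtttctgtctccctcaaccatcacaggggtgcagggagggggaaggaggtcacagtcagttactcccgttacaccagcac
Dntt promoter: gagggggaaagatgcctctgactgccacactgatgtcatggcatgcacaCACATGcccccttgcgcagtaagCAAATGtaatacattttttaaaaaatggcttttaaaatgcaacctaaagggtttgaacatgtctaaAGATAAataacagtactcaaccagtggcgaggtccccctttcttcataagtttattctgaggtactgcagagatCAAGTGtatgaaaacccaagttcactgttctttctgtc
These windows are chr2:101649533-101649782 for Rag1, chr2:101624462-101624711 for Rag2 and chr19:41029025-41029274 for Dntt. The RefSeq and GENCODE starts differ for Rag1 and Rag2. The Rag1 window begins at 101649533, beyond the GENCODE start of Rag1 at 101649501 and directly next to that of B230118H07Rik at 101649532, so it is also the window before the start of that gene. The Rag2 window ends at 101624711, short of the GENCODE start at 101624718.

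The Rag1 window held 3 E boxes, 2 Runx matches, 1 of which overlaps an E box, and 1 Ikaros match. The Rag2 window held 1 E box and no other match. The Dntt window held 3 E boxes and 1 Gata match. None of the 3 windows held the TCF and LEF letters. Among 32851 promoter windows of the same length, 66.2% held an E box, 13.8% the TCF and LEF core, 14% the Runx, 9.99% the Gata and 21.6% the Ikaros letters. A match is a run of letters and not a site, and these windows hold no enhancers.

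All 3 genes were higher in the DN2-3 plate than in the DN1 plate of each genotype sorted in both gates. In WT, Dntt had 13.5 CPM in DN1 (10.9 to 16.5) and 3037 CPM in DN2-3 (2988 to 3085). Rag1 had 6.05 CPM (4.38 to 8.14) and 223 CPM (210.1 to 237). Rag2 had 0 counts in WT DN1, which at a floor of 3 counts allows up to 0.422 CPM, and 58.1 CPM (51.6 to 65.2) in DN2-3. All 3 transcripts were thus at or near 0 in the WT DN1 plate and present in the WT DN2-3 plate.

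Log2 ratios are on the log2(CPM + 10) scale, and the WT differences between gates were 3.86 for Rag1 and 7.02 for Dntt. Without the pseudocount these are 36.9-fold and 225-fold. Rag2, also without the pseudocount, was at least 138-fold higher, against the 0.422 CPM floor of the DN1 plate. All 3 were at least 2-fold higher, as were 17.1% of the 4259 genes at 50 CPM or more in either plate, while 12.1% were at least 2-fold lower. In Tcf7-/- cells the log2 ratios were 3.72, 2.5 and 2.26 for Rag1, Rag2 and Dntt, where 10.5% of genes lay at least 2-fold above the DN1 plate and 18% below. In Vav-cre cells Rag2 and Dntt had 3.10 and 5.08, and Rag1, with 0 counts in DN1, was at least 110-fold higher against the floor of 1.94 CPM, without the pseudocount. There 15.9% of genes were at least 2-fold higher and 24.1% lower.

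**Figure D1:**
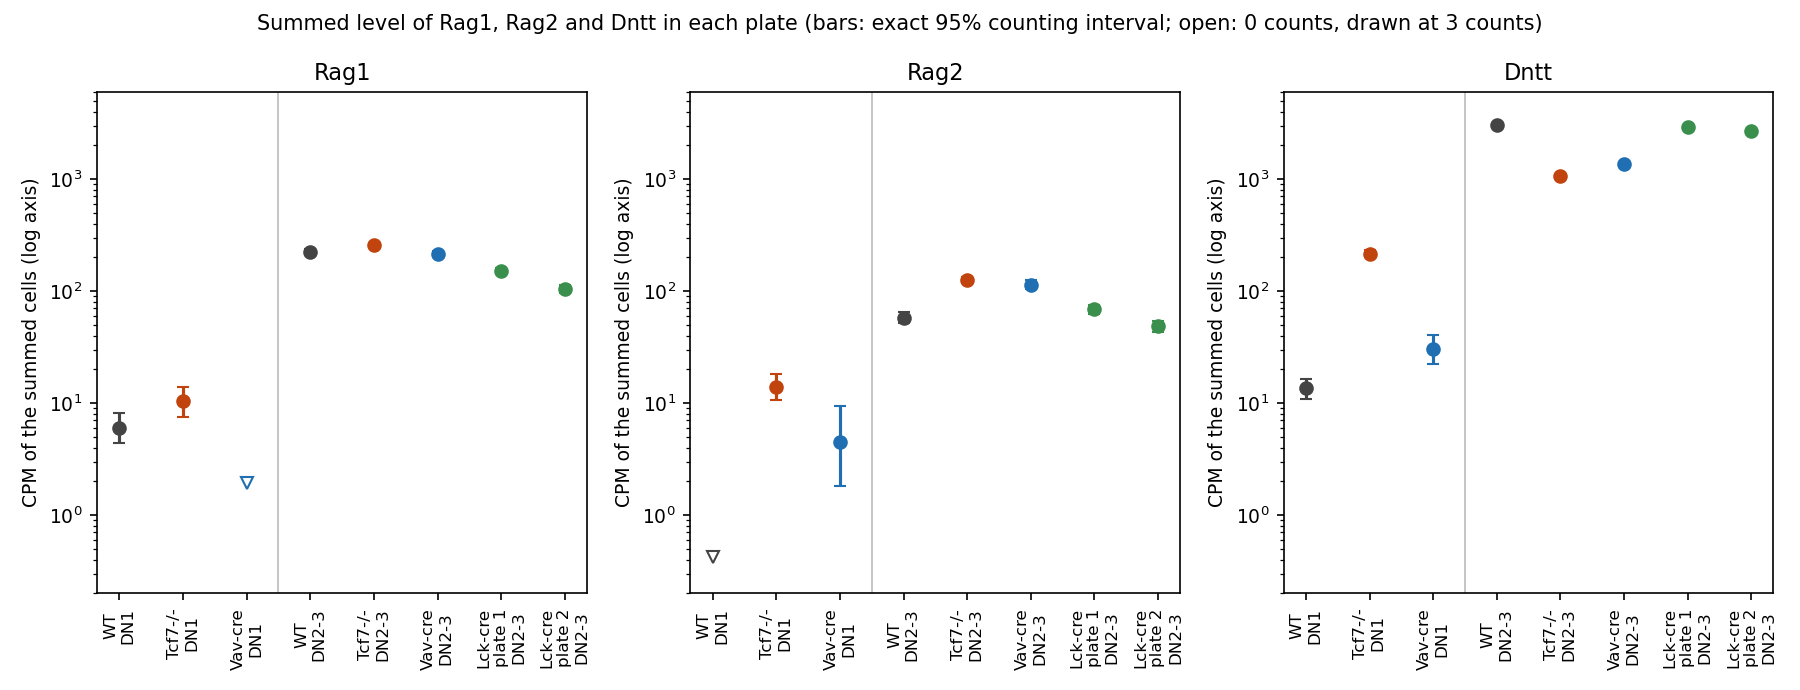
Summed level of each gene in the 8 plates, in CPM on a log axis, with exact 95% counting intervals as bars, many of them smaller than the points. Open triangles are plates with 0 counts, drawn at the floor of 3 counts. All 3 genes are higher in the DN2-3 plates, right of the line, and Dntt at 217 CPM in Tcf7-/- DN1 stands above the 13.5 and 30.4 CPM of the other DN1 plates.

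Within the DN2-3 gate the 3 genes did not move together. Dntt was lower in the Tcf7-/- and Vav-cre plates than in WT, and close to WT on both Lck-cre plates. Rag2 was higher in the Tcf7-/- and Vav-cre plates, while Rag1 stayed near its WT level there. Rag1 was lower on both Lck-cre plates.

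Dntt stood at 3037 CPM in WT and 1074 CPM (1052 to 1097) in Tcf7-/-. Vav-cre held 1358 CPM (1324 to 1393), and the first and second Lck-cre plates held 2941 CPM (2898 to 2985) and 2684 CPM (2642 to 2726). The log2 ratio to WT was -1.49 for Tcf7-/-, which is 2.83-fold lower without the pseudocount, and -1.15 for Vav-cre. It was -0.05 and -0.18 for the Lck-cre plates, whose own difference was -0.13. The Tcf7-/- and Vav-cre values lie far outside the gap between the Lck-cre plates. Those plates are not named as separate mice, so their gap may hold no spread between mice. Dntt was the 1 gene of the 3 at least 2-fold lower in either comparison, against 10.5% of genes for Tcf7-/- and 8.48% for Vav-cre. On the Lck-cre plates none of the 3 was at least 2-fold higher, as 1.1% and 0.975% of genes were, and between those plates 1.86% of genes were at least 2-fold higher and 0.835% lower. Scaling by the TMM factors of edgeR, which raises all Tcf7-/- ratios to WT by 0.24 and all Vav-cre ratios by 0.17, gave -1.25 and -0.99, so the Vav-cre value then fell just short of 2-fold.

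Rag2 was at 58.1 CPM in WT and 125 CPM (118 to 133) in Tcf7-/-. Vav-cre held 114 CPM (104 to 125) of it, and the Lck-cre plates 68.7 CPM (62.3 to 75.6) and 48.4 CPM (43 to 54.4). Its log2 ratio to WT was 0.99 in Tcf7-/- and 0.87 in Vav-cre, and 0.21 and -0.22 in the Lck-cre plates, which lie on both sides of WT and differed by -0.43. Without the pseudocount Tcf7-/- was 2.16-fold and Vav-cre 1.96-fold above WT. No log2 ratio of Rag2 reached 1, against 2.99% of genes higher for Tcf7-/- and 5.7% for Vav-cre. The size rests on how cells are weighted: as a mean of per-cell CPM the Tcf7-/- and Vav-cre ratios were 0.61 and 0.063. In that mean a WT cell of 2636 CPM weighs much, and without the highest cell of each plate the ratios were 0.74 and 0.41. With TMM factors they were 1.21 and 1.01, both past 2-fold.

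Rag1 was at 223 CPM in WT and 258 CPM (248 to 269.6) in Tcf7-/-. It was at 214 CPM (200.1 to 228) in Vav-cre and at 151 CPM (141 to 161) and 104 CPM (95.6 to 112) on the Lck-cre plates. The log2 ratios to WT were 0.20 and -0.06 for Tcf7-/- and Vav-cre, smaller than the -0.50 between the 2 Lck-cre plates. On the Lck-cre plates they were -0.53 and -1.03, with a mean of -0.78. The second plate was past 2-fold and the first was not. Genes at least 2-fold lower made up 4.62% on the first plate and 3.64% on the second, and for the mean of both 3.29% were lower and 0.375% higher. The gap to WT on the first plate is as large as that between the 2 plates.

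**Figure D2:**
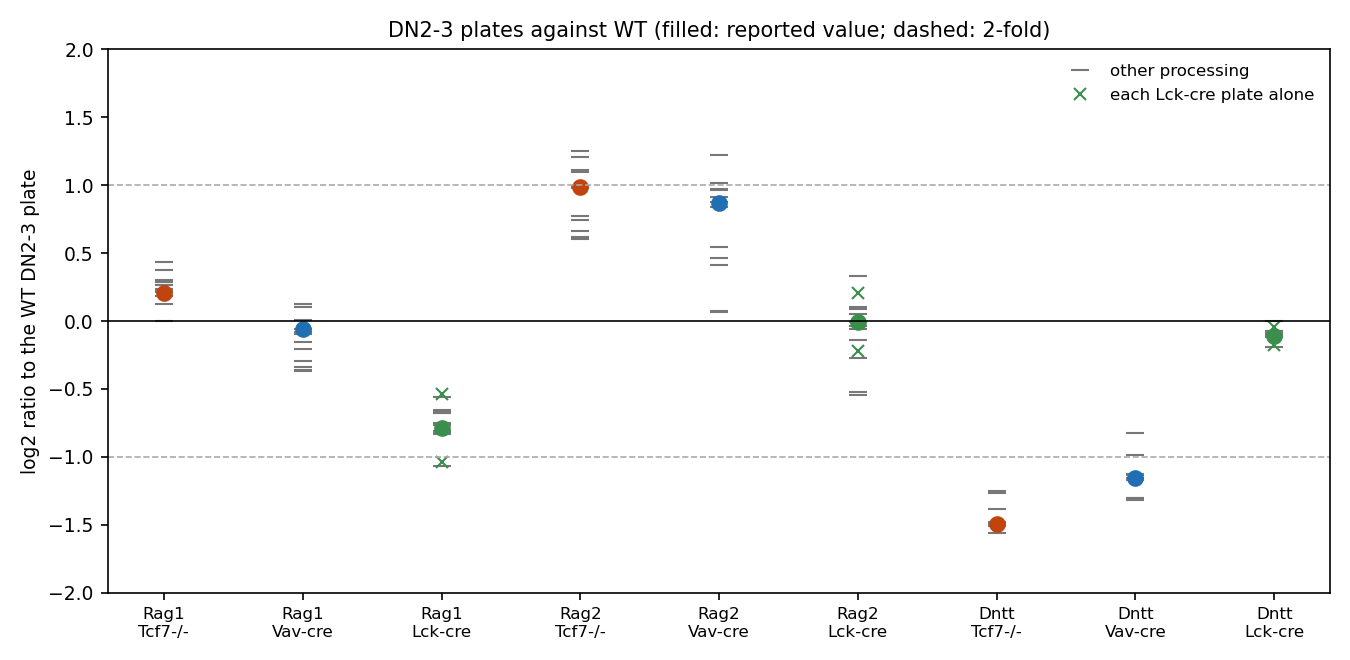
Log2 ratio of each DN2-3 genotype to the WT DN2-3 plate, with the reported value as a filled point, other processing settings as dashes and each Lck-cre plate alone as a cross. Dashed lines mark 2-fold. Dntt is below 0 in Tcf7-/- and Vav-cre at every setting, and the dashes of Rag2 in Vav-cre run from 0.063 to 1.22.

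The share of Rag1 among the recombinase transcripts was highest in WT. Of the summed Rag1 and Rag2 counts, Rag1 made up 79.3% in WT (77.1 to 81.4), 67.4% in Tcf7-/- (65.7 to 69), 65.2% in Vav-cre (62.7 to 67.6), and 68.7% and 68.2% in the Lck-cre plates. The 4 plates labelled with a Tcf7 deletion lie within 65.2 to 68.7%, and the interval of WT is above all of theirs. The share compares plates, and not the amounts of the 2 transcripts, since it holds no length term. As a mean of per-cell CPM the shares were 74.3% in WT and 74.1% on the second Lck-cre plate, so that gap closes when cells weigh equally. There is 1 WT plate, so plate and genotype cannot be told apart.

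Dntt counts were found in nearly every DN2-3 cell and the lower level was shared by most cells. Dntt was counted in 100% of the cells of 4 plates and, on the Vav-cre plate, in 97.4%. The median cell had 3220 CPM in WT, with quartiles of 1966 and 4282 CPM. It had 1014 CPM in Tcf7-/- and 1220 CPM in Vav-cre, against 2953 and 2903 CPM on the Lck-cre plates. Of the 93 Tcf7-/- cells 86% lay below the lower quartile of WT (77.3 to 92.3), and of the 76 Vav-cre cells 78.9% (68.1 to 87.5). For Lck-cre these shares were 19.8% and 25.3%. The highest cells of Tcf7-/- and Vav-cre reached 3511 and 3599 CPM, so their ranges overlap that of WT, which ran from 806 to 7081 CPM.

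Rag1 and Rag2 were patchy from cell to cell. Rag1 had a count in 62.5% of WT DN2-3 cells (51.5 to 72.6) at a median of 1 count, in 86% of Tcf7-/- (77.3 to 92.3) and 65.8% of Vav-cre cells, and in 57.1% and 47.1% of Lck-cre cells. Rag2 had a count in 40.9% of WT cells (30.5 to 51.9), 73.1% of Tcf7-/- (62.9 to 81.8) and 55.3% of Vav-cre cells, and 45.1% and 27.6% of Lck-cre cells. WT DN1 cells, at a median depth of 66572 counts against 43592.5 in WT DN2-3, showed Rag1 in 1.16%, Rag2 in 0%, which allows up to 3.49%, and Dntt in 5.81%. Tcf7-/- DN1 cells, at a median of 37088.5 counts, showed Rag1 in 30.2%, Rag2 in 21.9% and Dntt in 96.9%. The DN2-3 shares of each genotype thus stand above those of its own DN1 plate.

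Depth was uneven, with a median of 70003 counts in Tcf7-/- DN2-3 cells. With every cell thinned to 10000 counts, which left out 4 to 13 cells per DN2-3 plate, Rag1 was found in 46.2% of WT cells (35 to 57.8), 62.9% of Tcf7-/- cells (52 to 72.9) and 58.5% of Vav-cre cells. The Lck-cre plates had 42.4% and 39.2%. Rag2 was found, in the same order, in 31.2%, 49.4%, 44.6%, 28.2% and 21.6%. The intervals of WT and Tcf7-/- then overlapped for both genes. The coefficient of variation of per-cell CPM was 0.44 for Dntt in WT DN2-3, and 2.14 and 2.99 for Rag1 and Rag2.

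**Figure D3:**
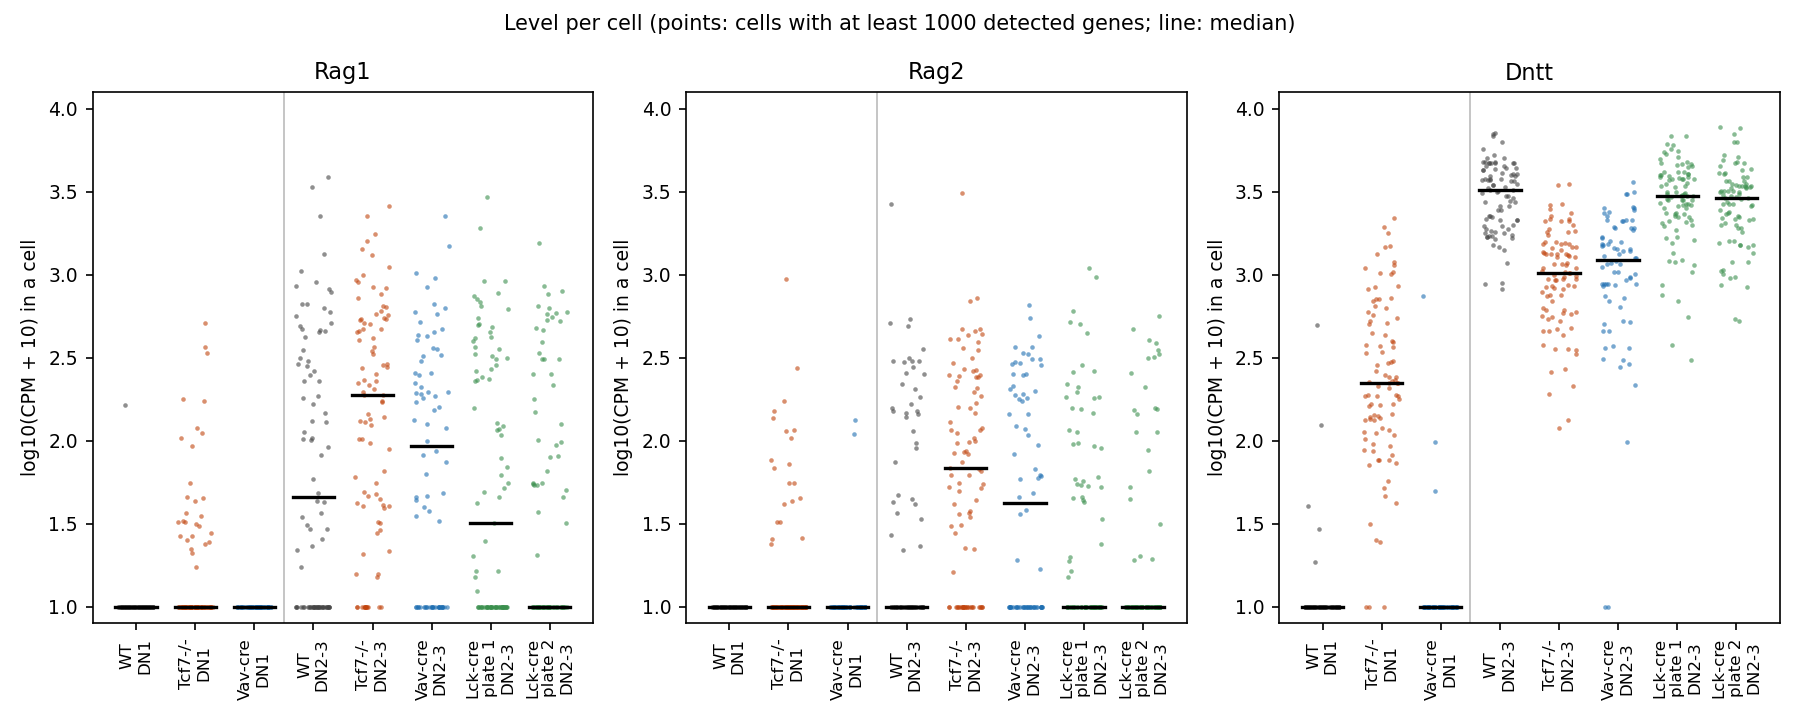
Level of each gene in each kept cell, as log10(CPM + 10), by plate, with the median as a black line. Cells at 1.0 have no count. Dntt forms 1 band per DN2-3 plate, lower in Tcf7-/- and Vav-cre, while Rag1 spreads there from no count to above 1000 CPM. Rag2 does so too, except in Vav-cre and on the second Lck-cre plate, where its highest DN2-3 cells were at 648 and 550 CPM.

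A working recombinase needs both subunits, and many DN2-3 cells showed a count of only 1 of them, or of none. In WT 29 of 88 cells (33%, 23.3 to 43.8) held counts of Rag1, Rag2 and Dntt, 26 held Rag1 and Dntt, 7 held Rag2 and Dntt, and 26 held Dntt alone. In Tcf7-/- 60 of 93 cells (64.5%, 53.9 to 74.2) held all 3 and 5 held Dntt alone. In Vav-cre 30 of 76 (39.5%) held all 3, and on the Lck-cre plates 26 of 91 (28.6%) and 14 of 87 (16.1%). A count missing at these depths is no sign that the transcript was absent.

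At 10000 counts per cell, all 3 genes were found in 21.2% of WT cells (12.9 to 31.8) and 32.6% of Tcf7-/- cells (23 to 43.3). Vav-cre had 26.2% and the Lck-cre plates 12.9% and 10.8%. The interval of Tcf7-/- overlaps that of WT at this depth. Asking for more than 5 counts of each gene left 10 WT cells, 31 in Tcf7-/-, 12 in Vav-cre and 8 on each Lck-cre plate.

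Rag2 was found more often in WT cells that held Rag1: in 29 of 55 (52.7%, 38.8 to 66.3) against 7 of 33 without Rag1 (21.2%, 8.98 to 38.9). The Rag1-negative cells were the deeper ones, at a median of 55153 against 41148 counts. Thinned, the WT shares were 45.9% and 18.6%. In Tcf7-/- the 2 shares were 75% and 61.5%, and in Vav-cre 60% and 46.2%. On the first Lck-cre plate they were 50% and 38.5%, and on the second 34.1% and 21.7%. The intervals of the 2 shares overlap slightly in WT and widely in the other 4 plates. Thinned, they came to 51.8% and 45.5% in Tcf7-/- and to 44.7% and 44.4% in Vav-cre. Across cells the Spearman correlation of Rag1 with Rag2 was 0.33 in WT, also after thinning, and 0.07 to 0.12 in the other 4 plates, weak values in sparse counts that share each cell's depth.

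**Figure D4:**
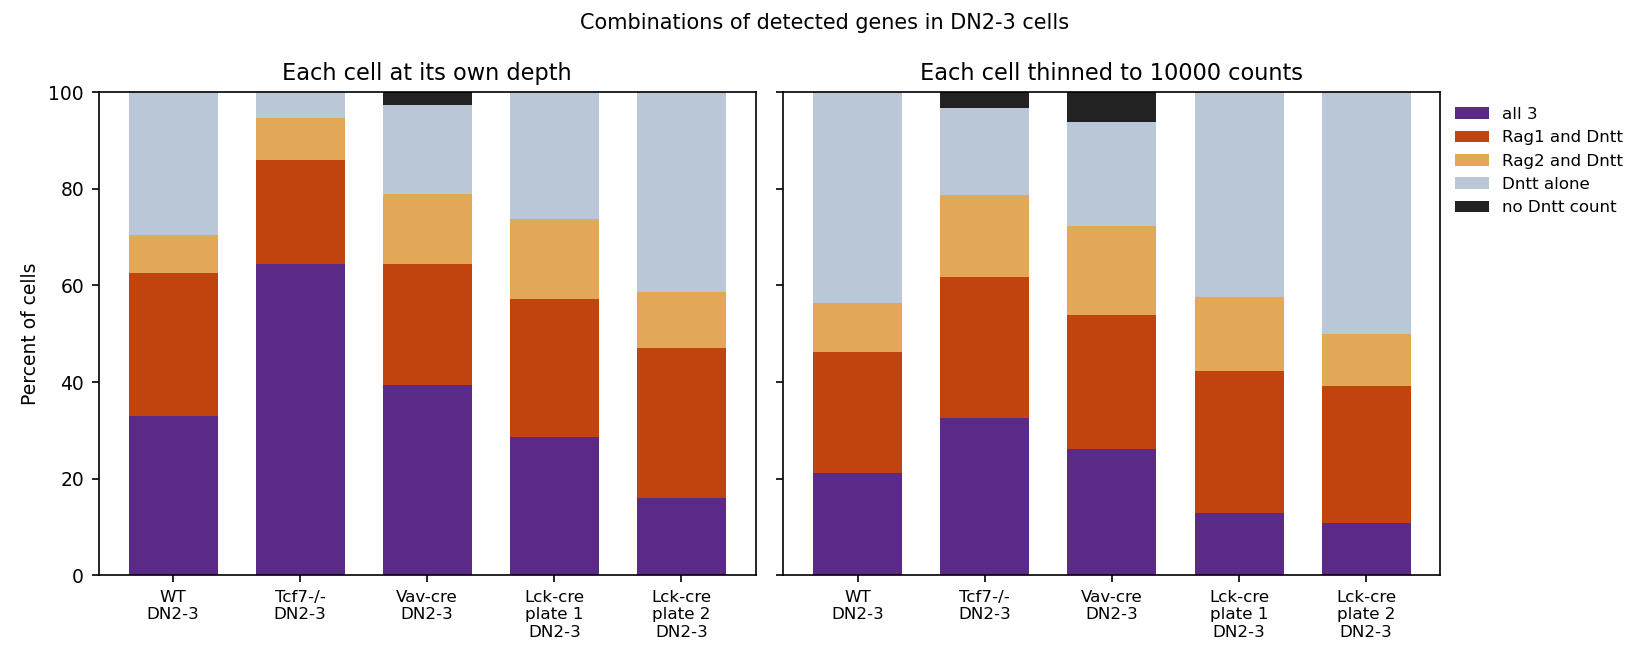
Percent of DN2-3 cells of each plate with each combination of detected genes, with cells at their own depth on the left and thinned to 10000 counts on the right. All 3 genes together fall from 64.5% to 32.6% of Tcf7-/- cells with thinning and from 33% to 21.2% of WT cells.

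The gate joins 2 stages, and the genes differed between cells marked by Cpa3, a mast cell protease gene also active in early T-cell precursors, and by Ptcra, the pre-T-cell receptor alpha chain. Classes were set by more than 5 counts. In WT, Rag1 was at 66.1 CPM (54.8 to 79.1) in 23 cells with Cpa3 only and at 251 CPM (224 to 279) in 23 cells with Ptcra only. On the Lck-cre plates it was at 48.2 CPM in 18 and 50 CPM in 9 Cpa3-only cells and at 185 CPM in 50 and 151 CPM in 38 Ptcra-only cells. Rag1 was thus lower in the Cpa3-only cells of the 3 plates with at least 5 such cells, and their median depth was the greater, 65383 against 46375 counts in WT.

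Rag2 went the same way, at 33.1 CPM (25.2 to 42.6) against 50.7 CPM (39.2 to 64.5) in WT, where the intervals overlap, and at 25.6 against 72.6 CPM and 18.1 against 60.7 CPM on the Lck-cre plates. Dntt went the other way. It was at 3429 CPM in Cpa3-only and 2738 CPM in Ptcra-only cells of WT, at 3410 and 2710 CPM on the first Lck-cre plate, and at 3351 and 2486 CPM on the second. Of these 2 classes, Dntt was thus higher in the one where Rag1 was lower. Cells with both markers did not follow this on the first Lck-cre plate, where 5 such cells held 3728 CPM of Dntt and 247 CPM of Rag1. In WT 7 such cells held 2855 CPM of Dntt and 190 CPM of Rag1, each between the 2 classes, with 122 CPM of Rag2, above both.

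Many cells held neither marker above 5 counts, and in WT a few of them held much Rag1. These 35 WT cells, at a median depth of 26334 counts, held 424 CPM of Rag1 (390 to 460.3) when summed, with 73.8 CPM of Rag2 and 2866 CPM of Dntt. Of the 35 cells 10 held more than 5 Rag1 counts (28.6%) and the median cell was at 81.7 CPM. In the deeper Ptcra-only cells of WT these values were 60.9% and 219 CPM. The sum thus put Rag1 highest in cells with neither marker, while the median cell and the share of cells put it highest in Ptcra-only cells. On the Lck-cre plates the cells with neither marker held 80.8 and 67.4 CPM of Rag1 in sum, in Tcf7-/- 157 CPM and in Vav-cre 98.2 CPM. The median such cell had no Rag1 count on the Lck-cre and Vav-cre plates and was at 139 CPM in Tcf7-/-.

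Tcf7-/- and Vav-cre held 2 and 1 Cpa3-only cells, fewer than the 5 needed, and 76 and 44 Ptcra-only cells. Dntt in these Ptcra-only cells was at 1130 CPM (1106 to 1155) and 1541 CPM (1497 to 1586), below the 2738 CPM of WT, with log2 ratios of -1.27 and -0.83. Rag2 was at 135 CPM (126 to 144) and 131 CPM (119 to 145) against 50.7 CPM in WT, with log2 ratios of 1.25 and 1.22. Rag1 was at 275 and 274 CPM against 251 CPM, and at 185 and 151 CPM in the Lck-cre plates. Within Ptcra-only cells the Vav-cre difference of Dntt was thus under 2-fold and both Rag2 differences were past it. The class rests on raw Ptcra counts, and took only 23 WT cells. Ptcra itself was at 598 CPM in Tcf7-/- and 297 CPM in Vav-cre against 147 CPM in WT. The class was also deeper there, at a median of 70496.5 and 57639.5 against 46375 counts. Whether these cells match in stage between plates was not tested. The ratios within these cells were added after values had been seen.

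**Figure D5:**
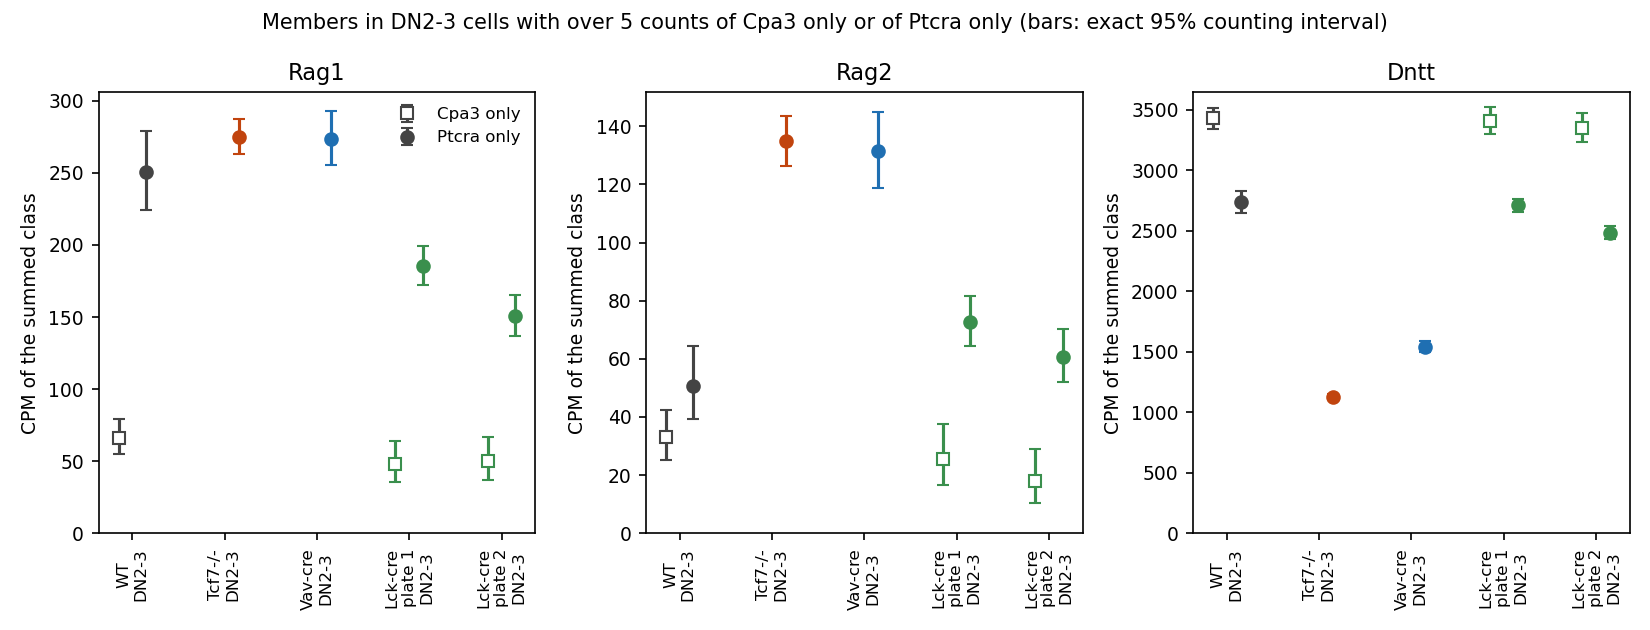
Level of each gene, in CPM summed over a class, in DN2-3 cells with more than 5 counts of Cpa3 only (open squares) or of Ptcra only (filled circles), with exact 95% counting intervals. Tcf7-/- and Vav-cre have too few Cpa3-only cells to show. Rag1 is lower and Dntt higher in Cpa3-only cells of WT and both Lck-cre plates.

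Cells with more than 5 counts of Mki67 or Top2a, genes of dividing cells, were set apart as well, a split chosen after values had been seen. Dntt was lower in these cells on all 5 plates, at 2706 against 3272 CPM in WT, 914 against 1249 CPM in Tcf7-/- and 951 against 1486 CPM in Vav-cre. The Lck-cre plates held 2553 against 3284 CPM and 2243 against 2940 CPM. Rag1 was lower in them on 4 plates, at 139 against 283 CPM in WT, 174 against 350.5 CPM in Tcf7-/-, 116 against 244 CPM in Vav-cre and 115 against 183 CPM on the first Lck-cre plate. The second Lck-cre plate was the exception, at 124 against 92 CPM. Rag2 was lower in WT, at 27.5 against 79.9 CPM, in Tcf7-/- and on both Lck-cre plates, and level in Vav-cre at 114 and 114 CPM. The cells with Mki67 or Top2a were deeper, at a median of 83129 against 34105 counts in WT, and the part of depth was not tested.

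In the DN1 gate few cells held these genes in WT and Vav-cre, and nearly all held Dntt in Tcf7-/-. All 43 Rag1 counts of WT DN1 were in 1 cell, which also held 451 counts of Cd3g, a T-cell receptor complex gene, and 928 of Nkg7, a gene of cytotoxic cells. Dntt passed 5 counts in 2 WT DN1 cells. The cell with 72 counts also held 18 of Flt3, 12 of Kit and 26 of Lyl1, genes of early progenitors, with 0 of Cd34 and Mpo from the same list. It held 306 counts of Klrd1, an NK-cell receptor gene, but 2 of Nkg7, from the same list. It also held 83 of Cd74 and 18 of Siglech, genes of dendritic cells, with 0 of Irf8, from the plasmacytoid dendritic list that holds Siglech. The other, with 21 counts, held 57 of Kit and 18 of Lyl1, with 0 of Cd34, Flt3 and Mpo. It also held 234 of Cd3g, 441 of Klrd1 and 169 of Nkg7. Without the top cell, Dntt in WT DN1 was at 3.45 CPM and Rag1 at 0.

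In Vav-cre DN1, Dntt was at 30.4 CPM, and 43 of its 47 counts were in 1 cell. That cell held 21 counts each of Cd34 and Flt3, with 7 of Mpo, 3 of Lyl1 and 1 of Kit from the same list. It held 44 of Cpa3 and 15 of Il2ra, and 77 of Nkg7 with 0 of Klrd1. Rag1 had 0 counts in this plate, which at 3 counts allows up to 1.94 CPM, and Rag2 had 7 counts in 2 cells. This plate kept 58 cells at a median of 19293 counts, so it shows least at low levels. Against WT DN1 the log2 ratio of Dntt was 0.78, and 17.5% of genes were at least 2-fold higher and 7.59% lower. Without the top cell of each plate Dntt was at 2.69 CPM in Vav-cre against 3.45 CPM in WT, so the direction turned.

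In Tcf7-/- DN1, Dntt was at 217 CPM (203 to 231) and had a count in 93 of 96 cells, with a median of 5 and a highest value of 65 counts. The log2 ratio to WT DN1 was 3.27, where 8.99% of genes were past 2-fold upward and 4.89% downward. Its top cell held 7.21% of the counts, so the level is spread over the plate. Rag1 was found in 29 cells, none of them with more than 4 counts, and Rag2 in 21 cells, 3 of them with more than 5. With counts of 1 to 5 set to 0, Dntt was at 179 CPM, Rag1 at 0 and Rag2 at 7.21 CPM.

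Markers of other cells varied among the 47 Tcf7-/- DN1 cells with more than 5 Dntt counts. Of these, 19 held more than 5 counts of at least 2 of the 7 early progenitor markers, against 1 of the 46 cells with 1 to 5 Dntt counts, whose median depth was lower, 23693 against 45605 counts. NK-cell markers, at least 2 of 9, passed 5 counts in 27 of the 47 and 19 of the 46 cells. The cell with the most Dntt counts, 65, was the deepest of the plate, at 270481 counts in total. It was not the cell of highest Dntt level, which was at 2174 CPM against a median cell of 212.5 CPM. This deepest cell held 87 counts of Cd34, 97 of Cpa3 and 87 of Mpo. It also held 208 of Nkg7 but 5 of Klrd1 from the NK-cell list. From the innate lymphoid list it held 44 of Il7r, but 5 of Id2 and 0 of Rora.

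The level of DN2-3 genes in Tcf7-/- DN1 was uneven between genes. As a percent of the Tcf7-/- DN2-3 level, Dntt was at 20.2%, Arpp21 at 20.3%, Il2ra at 14.4%, Rag2 at 11.1%, Ptcra at 8.52% and Rag1 at 4.0%. Other genes of the DN3 list lay outside this range, with Cd3e at 65.6%, Lck at 67.6%, Zap70 at 164% and Cd8a at 1.31%. All plates carry the same 96 barcode numbers. Over cells of the same number in the 2 Tcf7-/- plates, the Spearman correlation of Dntt counts was 0.24, within the -0.27 to 0.43 of the 27 other plate pairs. Whether RNA from other wells adds to these low counts was not tested.

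B230118H07Rik, the gene across the Rag locus, was at 10.7 CPM (7.98 to 13.9) in WT DN2-3, 58.5 CPM (53.5 to 63.9) in Tcf7-/-, 19.6 CPM in Vav-cre, and 15.1 and 6.85 CPM on the Lck-cre plates. It was high in Tcf7-/-, with a log2 ratio of 1.73 and a count in 36.6% of cells against 7.95% in WT. In Vav-cre, where Rag2 was also high, its ratio was 0.52. What it adds to the Rag2 counts over the 208 shared exonic bases was not tested.

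The other genes of the pathway were read against all genes at the same minimum level. Of 24 listed genes of V(D)J recombination and end joining, 23 are in the table, and 20 reached 10 CPM in WT or Tcf7-/- DN2-3. Of these, 1 was at least 2-fold higher in Tcf7-/-, Hmgb2 (1045 and 2263 CPM, log2 1.11), a DNA-bending protein that assists the recombinase, and 1 lower, Prkdc (27.1 and 5.61 CPM, log2 -1.25), the DNA-dependent protein kinase. The median log2 ratio of the 20 was 0.02, against -0.17 over all 8255 genes at that level, of which 3.19% were higher and 10.5% lower. In Vav-cre 1 of 20 was higher, Xrcc6 (214 and 891 CPM, log2 2.01), which encodes the Ku70 end-binding subunit, and 1 lower, Tdp1 (20.5 and 4.11 CPM, log2 -1.11), with a median of 0.11 against -0.14, where 5.77% of all genes were higher and 10.5% lower. On the first Lck-cre plate 0 of 21 were higher and Prkdc alone was lower (6.54 CPM), against 2.19% and 5.79% of all genes. On the second 0 of 20 were higher and 0 lower, against 2.02% and 5.33%. Counts of 0 or 1 are near these shares and are no result about the pathway.

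Of 30 transcription factors and signalling genes listed as regulators of Rag and Dntt genes, 25 were measured in Tcf7-/- and 23 in Vav-cre. In Tcf7-/-, 3 of 25 were higher and 3 lower, 12% each way, against 3.19% and 10.5% of all genes. The share lower is thus near that of all genes. The higher were Ikzf3 (Aiolos, 2.81 and 38.6 CPM, log2 1.92), Id3, an inhibitor of E proteins (124 and 266 CPM, log2 1.04), and Lyl1 (0.402 and 11.1 CPM, log2 1.02). The lower were Hhex (19.5 and 0.478 CPM, log2 -1.49), Myb (432 and 183 CPM, log2 -1.19) and Tcf4 (141 and 62 CPM, log2 -1.07).

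In Vav-cre 3 of 23 regulators were higher and 7 lower. Higher were Id2, another inhibitor of E proteins (75 and 377 CPM, log2 2.19), Lyl1 (log2 1.82) and Ikzf3 (log2 1.6). The 4 lowest were Akt1 (34.8 and 2.74 CPM, log2 -1.81), Bcl11b, a factor of T-lineage commitment (833 and 263 CPM, log2 -1.63), Hhex (log2 -1.53) and Satb1 (403 and 157 CPM, log2 -1.31). The median over the 23 was -0.58, against -0.14 over all genes, of which 5.77% were higher and 10.5% lower. Under Lck-cre 0 of 21 and 0 of 23 were higher, and 3 (14.3%) and 4 (17.4%) were lower, where 5.79% and 5.33% of all genes were, with Id2 lower on both (19.8 and 21.9 CPM, log2 -1.51 and -1.41). Of the 3 E protein genes of the list, named for what they encode and after their values were seen, Tcf3 and Tcf12 had log2 ratios between -0.39 and 0.49 in all 4 comparisons with WT. Tcf4 was lower, at -1.07 in Tcf7-/-, -0.86 in Vav-cre, and -0.18 and -0.58 on the Lck-cre plates.

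Of the DN2 and progenitor list, 6 genes were measured in Tcf7-/- DN2-3 and 5 in Vav-cre. In Tcf7-/- 4 were at least 2-fold lower (66.7%, against 10.5% of all genes) and 1 higher, with a median log2 ratio of -1.37. In Vav-cre 2 were lower (40%, against 10.5%) and 1 higher, with a median of -0.45. Cpa3, among the lower, was at -3.85 and -3.03. Stage genes of the DN3 list stood near WT in the median, at 0.03 in Tcf7-/- and in Vav-cre, but its members went both ways. In Tcf7-/- 4 of 17 were at least 2-fold higher (23.5%, against 3.19% of all genes) and 0 lower. They were Dtx1 (log2 2.95), a Notch target, Ptcra (1.95), Zap70 (1.69), a kinase of receptor signalling, and Cd4 (1.01). Cd4 was at 10.2 CPM in Tcf7-/- and 0 in WT, so it passed the 10 CPM minimum and the 2-fold line only narrowly. In Vav-cre 3 of 16 were higher (18.8%, against 5.77%), Dtx1 (2.97), Zap70 (1.77) and Cd8a (1.10). Cd4 and Cd8a are on the list but do not mark DN3, since the gate took cells without CD4 and CD8, and these shares include them. Lck (-1.19) and Arpp21 (-1.07) were lower, 12.5% against 10.5%. Ptcra was at 598 CPM in Tcf7-/- and 297 CPM in Vav-cre against 147 CPM in WT. Arpp21, a thymocyte RNA-binding protein gene, followed Dntt, with 1521 CPM in WT against 830 CPM in Tcf7-/- and 721 CPM in Vav-cre, and with 1480 and 1269 CPM under Lck-cre. Of 15 proliferation genes 7 were at least 2-fold higher in Tcf7-/- DN2-3 (46.7%, against 3.19% of all genes) and 0 lower. In Vav-cre 2 were higher (13.3%, against 5.77%) and 1 lower (6.67%, against 10.5%), Mki67 (log2 -1.49). The median log2 ratio of this list was 0.86 in Tcf7-/- and -0.04 in Vav-cre.

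Markers of other cells differed between the DN2-3 plates. The summed NK-cell marker level in DN2-3 plates was 248 to 500 CPM, with Ncr1 at 0 in all 5, and early progenitor markers summed to 12.4 to 40.9 CPM. The plasmacytoid dendritic list, which holds Tcf4, summed to 971 CPM in WT, 295 CPM in Tcf7-/-, 514 CPM in Vav-cre, and 714 and 602 CPM under Lck-cre. The median WT cell held 1023 CPM of this list, so its sum is spread over many cells and does not show such dendritic cells in the gate. Of its 6 genes at least 5 had counts in each plate, with Siglech at 0 on the first Lck-cre plate and Cox6a2 at 0 on the second. The innate lymphoid list, which holds Id2, was at 689 CPM in Vav-cre against 312 CPM in WT and 241 to 328 CPM in the other plates, with Il1rl1 at 0 in all 5. The erythroid and mast list was at 420 CPM in Vav-cre against 31.1 CPM in WT and 14.4 to 34.5 CPM elsewhere, with Car1 and Mcpt8 at 0 in all 5. It was uneven across Vav-cre cells, with a median of 7.66 CPM and a highest cell of 27761 CPM. The gamma-delta list was at 247 CPM in Tcf7-/- against 56.1 to 79 CPM elsewhere, with a median Tcf7-/- cell of 24.7 CPM and a highest of 5101 CPM. The myeloid list was at 14.9 CPM in Tcf7-/- and 3.65 CPM in Vav-cre against 75.6 CPM in WT, and the stromal list, of which Epcam alone was found in Tcf7-/- and Vav-cre, at 136 and 274 against 88 CPM. B-cell markers summed to 58.6 to 153 CPM and dendritic markers to 3.88 to 16.5 CPM. Whether these sums come from other cell types or from the thymocytes themselves, and their part in the Rag and Dntt differences, was not tested.

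The genes whose level over the 8 plates was most like each member were named by the Pearson correlation of log2(CPM + 10), among 4978 other genes. For Dntt they were Arpp21 (r = 0.996), Rapgef3, Prss57, Ahi1 and Spint2. For Rag1 they were Edem1 (r = 0.995), Chrna9, Nkap, Eefsec and Anapc7, and those near Rag2 included Psma6 (r = 0.985), Mns1, Cisd1 and Hsp90ab1. Rag2 ranked 48th and Dntt 199th by likeness to Rag1, at r = 0.956 and 0.907. With a pseudocount of 1 CPM they ranked 520th and 305th, at 0.848 and 0.894, so their order reversed. The 8 points share the difference between gates, which carries much of any correlation.

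Within DN2-3 plates, the mean Spearman correlation across cells was highest for Rag1 with Arpp21 (0.33, 0.24 to 0.50 over the 5 plates), Hdac4 (0.31), Malat1 (0.31), Cd3d (0.31) and Slc5a9 (0.30). For Rag2 the highest was 0.20 (Tbc1d22a) and for Dntt 0.25 (Fau), values too weak to describe in sparse counts. Rag1 correlated with Rag2 at 0.15 (0.07 to 0.33 over the 5 plates) and with Dntt at 0.10 (-0.13 to 0.29) in this mean. The measured correlations of Rag1 with the other 2 genes were thus weak in the mean. In sparse counts they cannot show how far the levels are related.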

How the data were processed

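Single thymocytes were measured by RNA sequencing of 96-cell plates. The submitters' processing notes name TopHat2 2.1.1, HTSeq and the mm10 or GRCm38 build. The values used are the counts per gene and cell as deposited by the authors, without normalization. The deposited log2 values, which the authors scaled per cell, served as an alternative. Whether molecular identifiers were collapsed, and the strand setting, are not given in the sources used here. The 27 date-like entries, 0.141% of counts, name no gene and were left out. Cells with fewer than 1000 detected genes were left out, 93 of 768. Counts were summed by plate and expressed as CPM, with exact 95% Poisson or binomial intervals, and ratios were taken on log2(CPM + 10). Each cell is 1 GEO sample, a plate counts as 1 sample, and no test was made. All plates carry the same 96 barcode numbers.

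The members and lists were chosen with earlier results of these data known. Named genes were the list genes at least 2-fold changed, of largest change first, and for likeness the 5 closest, of which 1 gene is not reported here. The split by Mki67 and Top2a and 3 alternatives (Ptcra-only cells, cells without Mki67 or Top2a, and a mean of per-cell CPM without the highest cell) were added after values were seen. The other alternatives were cell filters, thinning to 10000 counts, the pseudocount, TMM factors and weighting of cells. Promoters came from RefSeq (GRCm38.p6), with all 3 members matched. Python 3.11.15, numpy 2.4.6, pandas 2.3.3, scipy 1.17.1, matplotlib 3.10.9, R 4.3.3 and edgeR 4.0.16 (TMM factors only) were used. The ratios were also run on simulated Poisson counts of summed plates. These hold no spread between cells, plates or mice, so that run checks the calculation alone.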

Additional observations from a re-analysis of the deposited data

Results flagged for a closer look

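Dntt went in opposite directions in the 2 gates when the summed plates of a Tcf7 genotype were set against WT, and for Vav-cre this rested on single cells. For Tcf7-/- the log2 ratio was 3.27 in DN1 and -1.49 in DN2-3. For Vav-cre it was 0.78 in DN1, where 43 of its 47 counts came from 1 cell, and -1.15 in DN2-3. Without the top cell of each DN1 plate Dntt was at 2.69 CPM in Vav-cre against 3.45 CPM in WT, so it was then lower in both gates. As a mean of per-cell CPM without the highest cell it was at 2.24 against 2.03 CPM. The difference between gates was not tested, since each gate and genotype is 1 plate.

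Dntt was also counted in DN2-3 cells left out for having under 1000 detected genes. Its level there was 1631 CPM in 8 WT cells, 2095 CPM in 3 Tcf7-/- cells, 1355 CPM in 20 Vav-cre cells, and 1927 and 1740 CPM in 5 and 9 Lck-cre cells. These values rest on 29 to 94 counts per plate, and the order of the genotypes in used cells is not seen in them.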

How the results depend on the processing

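No paired analysis was possible because each group is 1 plate, and the barcode numbers only name wells. Over 12 alternatives, Dntt was at least 2-fold lower in Tcf7-/- than in WT DN2-3 in 12 and in Vav-cre in 10. Rag2 was above WT in 12 of 12 for both genotypes, past 2-fold in 4 and 2. Where a value moved, the cause was not tested. With TMM factors the log2 ratios for Tcf7-/- were 0.44 for Rag1, 1.21 for Rag2 and -1.25 for Dntt. For Vav-cre they were 0.10 for Rag1 and -0.99 for Dntt, and for the Lck-cre mean Dntt had 0.0012. Thinned to 10000 counts, Rag1, Rag2 and Dntt had 0.0027, 0.66 and -1.56 in Tcf7-/- and -0.30, 0.55 and -1.31 in Vav-cre. As a mean of per-cell CPM, Rag2 had 0.61 in Tcf7-/-, 0.063 in Vav-cre and -0.55 in the Lck-cre mean, and Vav-cre had -0.37 for Rag1 and -1.31 for Dntt. From the deposited log2 values these were 0.62, 0.072, -0.52, -0.36 and -1.30. Without the highest cell of each plate the mean of per-cell CPM gave Rag1 0.37 in Tcf7-/- and -0.34 in Vav-cre, Rag2 0.74 and 0.41, and Dntt -1.32 in Vav-cre. In Ptcra-only cells Dntt had -1.27 in Tcf7-/- and -0.83 in Vav-cre, Rag2 1.25, 1.22 and, for the Lck-cre mean, 0.33, and Rag1 0.12 in Vav-cre. In cells without Mki67 or Top2a the values were -1.38 for Dntt and 0.77 for Rag2 in Tcf7-/-, and 0.47 for Rag2 and -0.20 for Rag1 in Vav-cre. Leaving out either Lck-cre plate gave -1.03 to -0.53 for Rag1, -0.22 to 0.21 for Rag2 and -0.18 to -0.05 for Dntt. At more than 5 counts all 3 genes were found in 11.4% (WT), 33.3% (Tcf7-/-), 15.8% (Vav-cre) and 8.79% (first Lck-cre plate) of cells. Thinned, these were 21.2%, 32.6%, 26.2% and 12.9%. The other 77 ratios and 12 shares that lead a comparison moved by less than their counting interval or plate spread. A pseudocount of 1 CPM kept 1 of the 5 genes most like Rag1, 2 of those most like Rag2 and 4 of those most like Dntt. Depth limits Rag1 and Rag2 in single cells, where the median count is 0 to 13.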
